A study of Homo sapiens with 4 samples.

Results

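Between mock-transfected and untransfected HCT116 cells, 59 genes were at least 2-fold apart among 15131 genes with signal above a filter on dim values. HCT116 is an established line from a human colon adenocarcinoma. Of the 59 genes, 20 were higher and 39 lower in mock. Each line was measured on 1 Affymetrix array, so the differences have no replicate check and no test was made. The genes are known here only by Ensembl identifier: the 24916 identifiers of the deposited table matched 0 entries of the reference gene table, whose Ensembl column was empty. Gene names, gene classes (coding, small RNA, pseudogene) and sequences are therefore not given, and the colon epithelial markers of the cell line were not checked.

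The series holds 4 lines, all HCT116: mock-transfected cells, CST5 clones 9 and 20, and untransfected cells. The clones stably express CST5, the gene of cystatin D, a protein that blocks cysteine proteases. The sources used here give neither the vector of the mock cells nor whether they are 1 clone or a pool. A mock-transfected line is taken through the transfection procedure without the gene of interest. Beside untransfected cells, such a line gives how far 2 control lines stood apart without the transgene. With 1 array per line, the procedure, the separate culture of a line and array noise cannot be told apart. In bulk RNA of a line, fewer cells of a kind and less RNA per cell cannot be told apart.

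Array medians were 4.09 in mock, 4.18 and 4.21 in clones 9 and 20, and 4.12 in untransfected cells, on a scale read as log2 from its range. A gene entered the comparison if it exceeded the 40th percentile of its array on at least 2 of the 4 arrays. That percentile lay at 3.33 on the mock array and 3.35 on the untransfected array. The median log2 difference of mock minus untransfected over the 15131 genes was 0.00358, and the scaled median absolute deviation was 0.169.

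The higher genes made up 0.132% of the 15131, the lower genes 0.258%, and both together 0.390%. These shares follow from the 2-fold rule and nothing is read from them. Every other pair of the 4 arrays had more genes at least 2-fold apart, from 175 to 198 (1.16% to 1.31%). Among the 20 higher genes the log2 difference had a median of 1.20, or 2.30-fold, and ran from 1.03 to 1.83. Among the 39 lower genes its median was -1.31, a 2.47-fold lower level in mock, and it ran from -2.30 to -1.01. The lower side reached farther. Differences of 3-fold or more numbered 11 on the lower side (0.0727% of all genes above the filter) and 1 on the higher side (0.00661%). Differences of 4-fold or more numbered 4 on the lower side (0.0264%) and 0 on the higher side (0.00%). Differences of 1.5-fold or more were counted for 99 genes with more signal in mock (0.654%) and 157 with less (1.04%). The 5 genes just inside the 2-fold line had absolute log2 differences from 1.01 to 1.04, and the 5 just outside it from 0.959 to 0.979.

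**Figure D1:**
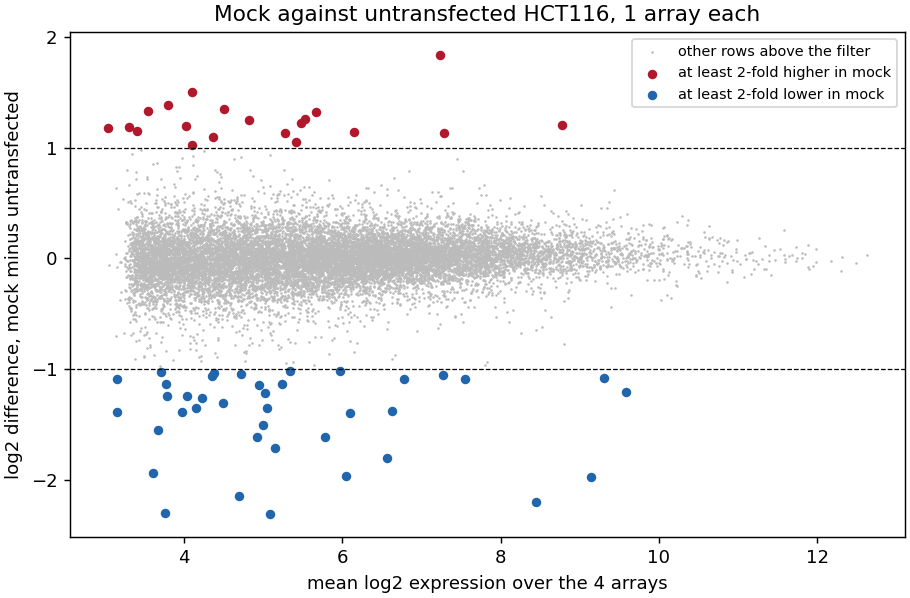
Log2 difference of mock minus untransfected cells (vertical axis) against mean log2 expression over the 4 arrays (horizontal axis), 1 point per gene above the filter, with dashed lines at 2-fold. The 39 lower genes (blue) reach a difference of -2.30, and the 20 higher genes (red) reach 1.83.

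The gene with the largest higher value in mock was ENSG00000142875. Its log2 level was 7.82 in mock, 7.52 and 7.62 in clones 9 and 20, and 5.98 in untransfected cells. The untransfected array stood alone below the other 3. Mock was 3.56-fold above untransfected cells, a log2 difference of 1.83.

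ENSG00000211697 was next, at 4.47 in mock, 3.91 and 5.03 in clones 9 and 20, and 2.97 in untransfected cells. Mock was 2.82-fold above untransfected cells. The untransfected value lay below the 40th percentile of its array, close to the dim end, where the table gives no measure of background.

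The largest lower value in mock belonged to ENSG00000240693. It read 3.87 in mock, 5.37 and 4.92 in clones 9 and 20, and 6.18 in untransfected cells. Mock stood at least 2-fold below each of the other 3 arrays, and the log2 difference from untransfected cells was -2.30.

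ENSG00000239282 differed by nearly the same amount, -2.30 on the log2 scale. Its level was 2.86 in mock, 3.13 and 3.87 in clones 9 and 20, and 5.15 in untransfected cells. Here the untransfected array stood alone above the other 3, and the mock value lay below the 40th percentile of its array.

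Dim genes held the largest share of the 59. With the 15131 genes in 3 equal classes of mean level, the dimmest class held 29 of the 59 (0.575% of its genes), the middle class 18 (0.357%) and the brightest 12 (0.238%). The scaled median absolute deviation of the difference over all genes of a class was 0.203, 0.173 and 0.135 in the same order, so the spread was also widest among dim genes. In 7 of the 20 higher genes the untransfected value did not exceed its array's 40th percentile. In 7 of the 39 lower genes the mock value lay at or under the 40th percentile of the mock array. Folds of these 14 genes can understate or overstate the difference, since no measure of background is given and genes were chosen for wide gaps. The brightest class still held 3 higher and 9 lower genes.

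Both CST5 clones offer a view of each gene on 2 further arrays. The median level of the 20 higher genes was 5.62 in mock, 4.20 and 4.92 in clones 9 and 20, and 4.42 in untransfected cells. The median level of the 39 lower genes was 4.41 in mock, 4.99 and 4.76 in clones 9 and 20, and 5.91 in untransfected cells. The medians of the lower genes thus put both clones between the control lines, whereas the clone 9 median of the higher genes lay below both control medians. Taken singly, most of the higher genes had clone 9 between the controls. Since the rule picks genes for a wide gap between the controls, the values of any other line have a wide span in which to fall between them.

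Gene by gene, both clones lay between mock and untransfected cells in 25 of the 39 lower genes and in 4 of the 20 higher genes. In 14 of the 20 higher genes the clones took different places, above, between or below the controls. Of all 59 genes, 21 had both clones nearer to mock, 16 had both nearer to untransfected cells, and 22 had a clone on either side of the midpoint. Mock differed 2-fold or more, in 1 direction, from all 3 other arrays in 2 of the higher and 9 of the lower genes. Untransfected cells did so in 3 of the higher and 9 of the lower genes. In the remaining 36 genes neither control stood apart in this way. The same shares over all genes above the filter were not counted, so these counts are a description only.

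**Figure D2:**
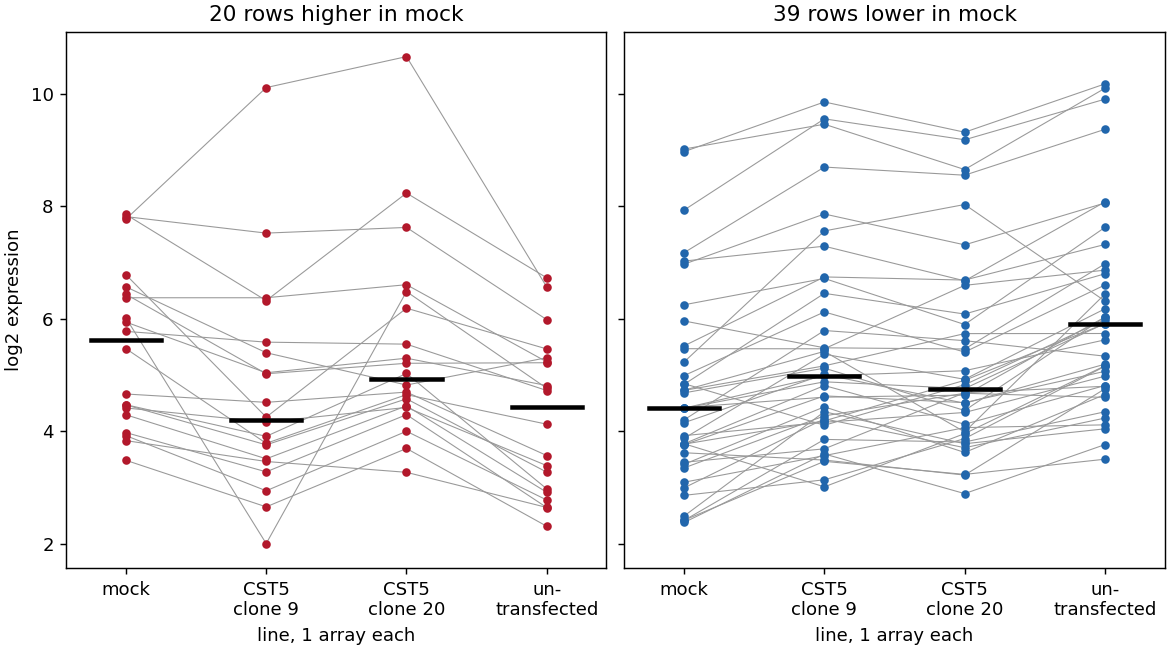
Log2 expression of the 20 genes higher (left, red) and the 39 lower (right, blue) in mock, on the 4 arrays from mock to untransfected cells; thin lines join the values of 1 gene and thick bars are medians. The medians of the higher genes are 5.62, 4.20, 4.92 and 4.42, and those of the lower genes 4.41, 4.99, 4.76 and 5.91.

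Among the higher genes, a pair with extreme clone values was picked out after the values had been seen. A gene at 7.77 in mock, against 6.56 in untransfected cells, read 10.1 and 10.7 in clones 9 and 20, above both controls. Another, at 6.01 in mock against 4.76 in untransfected cells, read 6.48 in clone 20 and lay under 2.57, the 25th percentile of the array, in clone 9. The clone 9 value is too dim for a fold, since its distance from background is not known.

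The difference between clone 9 and clone 20 uses neither control array, so for genes chosen by the controls it is a separate measurement, apart from the filter, which reads all 4 arrays. The clones were at least 2-fold apart in 9 of the 59 genes, or 15.3%, against 183 of the 15131, or 1.21%. The median absolute log2 difference between the clones was 0.549 over the 59 genes and 0.157 over all genes above the filter. Genes far apart between the controls were therefore also more often far apart between the clones. The order held within each class of level: 0.688 against 0.179 in the dimmest class, 0.407 against 0.163 in the middle class and 0.544 against 0.134 in the brightest. With the filter read from both control arrays alone, 5 of 45 genes had clones at least 2-fold apart, or 11.1%, against 1.10% of the 14630 genes then above the filter.

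The sign of the clone difference also went with the direction in mock. Clone 9 lay below clone 20 in 17 of the 20 genes higher in mock, where 50.3% of all genes above the filter did. All 7 higher genes whose clones were at least 2-fold apart had clone 9 as the lower one. Some of these 7 were dim in untransfected cells and clone 9, and passed the filter through mock and clone 20 alone. In those genes the filter itself set clone 9 below clone 20, and they also count among the 17. Other dim genes, higher or lower in mock, passed through a control and a single clone. Their sign was fixed likewise, in either direction. Clone 9 lay above clone 20 in 26 of the 39 genes lower in mock, against 49.4% of all genes above the filter. The median log2 difference of clone 9 minus clone 20 was -0.69 over the higher and 0.18 over the lower genes. With the filter read from both control arrays alone, clone 9 lay below clone 20 in 11 of 13 higher genes. Under that filter it lay above clone 20 in 21 of 32 lower genes, and the share over all genes was not counted. Across all 15131 genes the relation was nearly absent, where the control difference and the clone difference gave Pearson's r = -0.0279 and Spearman's rho = -0.0106. Genes on the same arrays are not independent, so no p-value was attached.

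**Figure D3:**
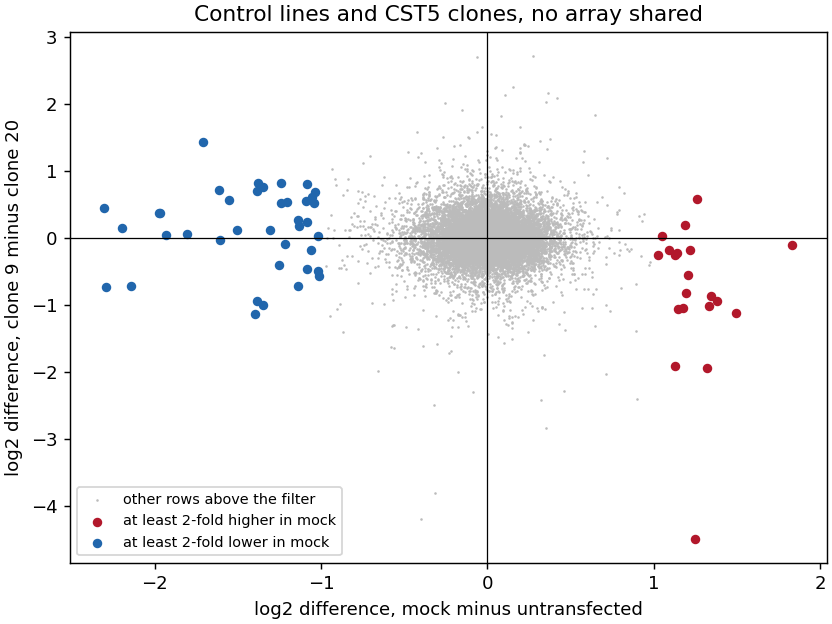
Log2 difference of clone 9 minus clone 20 (vertical axis) against mock minus untransfected cells (horizontal axis), 1 point per gene above the filter. Of the 20 genes higher in mock (red), 17 lie below the horizontal zero line, and of the 39 lower genes (blue), 26 lie above it.

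With names out of reach, the identifiers themselves carried 1 further feature. Ensembl numbers were put in blocks of 1000, a grouping made after the values had been seen. A block of numbers is not by itself a gene class, and whether the genes of a block share a class was not checked. At least 3 of the 59 genes fell in each of 4 blocks, which together held 15 of the 39 lower genes and 1 of the 20 higher genes. The 4 blocks held 291 of the 15131 genes above the filter, or 1.92%. They were picked for holding genes chosen by the same difference, so these shares are a description and support nothing.

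The block from 210000 to 210999 had 19 identifiers in the table, of which 15 passed the filter. Of the 15, 5 were at least 2-fold lower in mock and 0 were at least 2-fold higher. These 5 had log2 differences from -2.19 to -1.05. Their levels ran from 6.25 to 9.02 in mock, 6.72 to 9.85 in clone 9, 5.90 to 9.32 in clone 20 and 7.62 to 10.2 in untransfected cells, and all 5 lay in the brightest class of mean level. The other 10 genes of the block were less than 2-fold apart, with a median log2 difference of -0.18. Of these 10, 9 read lower in mock, against 48.8% of all 15131 genes, and the smallest of these differences was -0.00888. That median is close in size to the scaled median absolute deviation over all genes, 0.169. The block was picked by the same difference, so the count is a description and supports nothing.

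Over all 15 genes of this block the median level was 7.02 in mock, 8.03 and 7.59 in clones 9 and 20, and 8.08 in untransfected cells. Clone 9 lay above clone 20 in 13 of the 15, with a median log2 difference of 0.54. Clone 9 lay above untransfected cells in 4 of the 15 and clone 20 in 2. Untransfected cells had the highest of the 4 readings in 11 of the 15 genes. The lowest reading came from mock in 4 genes and from clone 20 in 10, so lower readings in this block were not particular to mock.

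The other 3 blocks ran from 239000 to 239999, 241000 to 241999 and 242000 to 242999. They held 3 lower genes among 75 above the filter (4%), 4 among 106 (3.77%) and 3 among 95 (3.16%), where 0.258% of all genes above the filter were at least 2-fold lower. The median log2 difference over all genes of each block was -0.03, -0.02 and -0.01. Together they included 5 of the 11 genes that were at least 3-fold lower in mock.

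**Figure D4:**
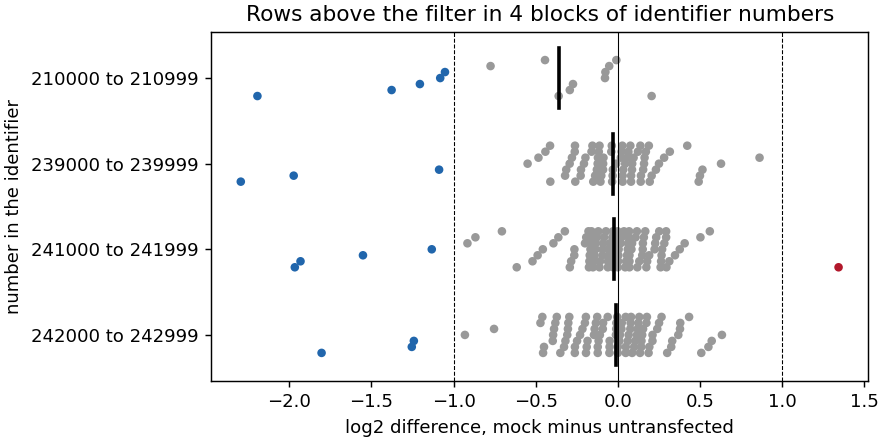
Log2 difference of mock minus untransfected cells (horizontal axis) for every gene above the filter in 4 blocks of identifier numbers (vertical axis), with block medians as black bars and dashed lines at 2-fold. In the block from 210000 to 210999, 14 of 15 points lie left of 0, the 5 chosen genes (blue) among them, and the median is -0.36; in the other blocks the medians lie between -0.03 and -0.01.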

How the data were processed

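Mock-transfected cells, CST5 clones 9 and 20 and untransfected cells were each measured on 1 array. Total RNA (100 ng per line) was amplified, per the labels' protocols, then labelled with biotin and hybridised to Affymetrix arrays. The authors deposited 1 table of 24916 Ensembl identifiers with 1 value per array, taken here as log2 expression from the range 1.03 to 12.7; the sources used here do not give the log base, the array model, the background correction, the summarisation or the normalization. Every fold rests on that base. The number of arrays limits the precision, and no probe-level or detection values were used.

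Columns were mapped by sample identifier. Genes above the 40th percentile of their array on at least 2 of the 4 arrays were kept (15131 kept, 9785 removed). Differences were taken as deposited, with a 2-fold threshold. No table used here paired the identifiers with symbols, so the 20 gene lists and 5 marker lists drawn up for the comparison, the gene classes and the rule for naming genes could not be applied. Of the 59 genes, 2 identifiers per direction are printed, those with the largest difference. The counting was tested on simulated data with large planted differences and little noise, which checks the code and not the counts reported here. The members, lists and thresholds were chosen with earlier results of these data known. No 2 of the 59 genes shared all 4 values (0 of the 7 rows in the table that did share them). Alternatives were 4 filters, 3 scalings (median centring, quantile normalization, cyclic loess in limma 3.58.1 and R 4.3.3) and 2 other fold thresholds. Python 3.11.15, pandas 2.3.3 and matplotlib 3.10.9 were used.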

Additional observations from a re-analysis of the deposited data

How the results depend on the processing

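The count of 20 genes higher and 39 lower in mock depended on the filter on dim values. Without a filter the counts were 32 and 46. At the 60th percentile they were 10 and 20, since fewer genes are kept. With both controls required above the 40th percentile they were 13 and 32, and with either control 25 and 44. By construction, 99 and 157 genes passed at 1.5-fold and 1 and 11 at 3-fold. Scaling changed little: median centring kept 56 of the 59 genes, quantile normalization 54 and cyclic loess 58, and the printed identifiers kept their direction. More genes were lower than higher in mock under all 9 alternatives. Under these alternatives, the share of chosen genes with clones at least 2-fold apart was lowest at 3-fold, 8.33% or 1 of 12. It was highest at the 60th percentile, 16.7% or 5 of 30. Of all genes then kept, the share ran from 0.879% to 1.28% across the alternatives. The chosen sets overlap, so these shares are not separate checks. In the block from 210000 to 210999, 14 of 15 genes read lower in mock as reported, 15 of 19 without a filter, 13 of 13 at the 60th percentile and 13 of 15 after median centring. No paired analysis was possible because each line has 1 array, and the medians of the gene lists were not run. How far dim genes stood above background is unknown.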
